A study of Mus musculus with 9 samples.

Results

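The elements described here are stretches of intergenic DNA on which engaged RNA polymerase was counted on 1 strand at a time. dREG, a program that finds sites of polymerase initiation from run-on sequencing, supplied the peaks, and the deposited table lists each peak either whole or as single strands. All entries that the table places as intergenic and counts on the plus or the minus strand were taken. They number 9202 of 42114 entries (21.9%), of which 4589 lie on the plus strand and 4613 on the minus strand. They come from 4655 peaks, and 4547 of these have both strands in the set, matched by chromosome, start and end. The other 108 peaks have 1 strand only, 42 of them plus and 66 minus, and plus and minus refer to the strand of the reference genome.

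The libraries are PRO-seq, which sequences nascent RNA held by engaged polymerase, from mouse erythroid cell lines. In G1E-ER4 cells a fusion of GATA1 with the hormone-binding domain of the oestrogen receptor makes GATA1 activity depend on estradiol. These cells were sampled without estradiol, called 0 h (n = 3), after 13 h of 100 nM estradiol (n = 2) and after 24 h of it (n = 2). G1E is the parental line, which lacks working GATA1, and it was sampled untreated (n = 2). G1E-ER4 is a derivative of G1E, so all 4 groups share the absence of the cells' own GATA1, and the fusion is an added gene rather than the natural one. All cultures were kept with erythropoietin and kit ligand, per the labels' protocols. Nothing in the labels states whether replicates are separate cultures, so p-values measure the spread between these libraries, which may be technical.

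Enhancers and promoters are places where polymerase starts on both strands, usually from a pair of start sites that face away from each other. At enhancers the RNAs are short and quickly destroyed, so a run-on assay sees them better than an assay of finished RNA. Reads on a strand can come from the element's own start site or from a gene read through the element, and a count per strand does not tell these apart. In red cell precursors GATA1 binds many such elements, switches on the globin and haem genes and turns off genes of the progenitor, among them Gata2 and Kit.

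Some of the elements lie beside microRNA genes, and the mature RNAs of those that the results below turn on are shown here because they name the transcripts next to the elements. Sequences and positions are RefSeq's for build GRCm38.p6, and the capitals mark the seed, bases 2 to 8, which pairs with target messages. The 5 seeds all differ. The precursor genes are Mir30c-2 on the plus strand of chromosome 1, Mir219a-2 on the minus strand of chromosome 2 and Mir21a on the minus strand of chromosome 11. In that build miR-30c-5p lies at chr1:23291714-23291736, miR-30c-2-3p at chr1:23291754-23291775, miR-219a-5p at chr2:29845689-29845709, miR-21a-5p at chr11:86584120-86584141 and miR-21a-3p at chr11:86584082-86584103.
mmu-miR-30c-5p: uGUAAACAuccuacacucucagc
mmu-miR-30c-2-3p: cUGGGAGAaggcuguuuacucu
mmu-miR-219a-5p: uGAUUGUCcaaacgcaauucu
mmu-miR-21a-5p: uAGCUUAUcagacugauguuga
mmu-miR-21a-3p: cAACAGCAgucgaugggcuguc
Positions of elements are those of the deposited table, in the older build mm9, and must not be set against GRCm38.p6 positions.

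The libraries held 15394427 (G1E replicate 2) to 59952454 (0 h replicate 3) reads in dREG elements. Gata1 itself had 214 and 280 gene-body counts scaled to library size (CPM) at 13 h and 300.7 and 301 CPM at 24 h, against 188, 198 and 257 CPM at 0 h and 164 and 214 CPM in G1E, so reads over it do not separate the line without working GATA1 from the others and do not check that label. Marker genes were read in the same gene-body counts. The 6 red cell markers summed to 293 and 397 CPM in the 13 h libraries and to 1284 and 1552 CPM at 24 h, against 62.6 to 72.02 CPM at 0 h, and G1E had 56.8 and 106 CPM with Hbb-b1 at 0. The 4 mast cell markers ran the other way, with 2.73 and 6.07 CPM at 13 h and 0.260 and 0.603 CPM at 24 h, against 94.2 to 136 CPM at 0 h and 73.8 and 188 CPM in G1E. Of these, Fcer1a was at 0 in every 13 h and 24 h library and Ms4a2 in every 24 h library. The 4 megakaryocyte markers summed to 13.5 to 32.4 CPM in the G1E-ER4 libraries and to 47.7 and 48.6 CPM in G1E. Markers of granulocytes and monocytes stayed under 0.3 CPM, and markers of lymphocytes summed to at most 1.47 CPM in any library. In such bulk libraries fewer cells of a type and less RNA per cell cannot be told apart, and the part of the mast cell and megakaryocyte signal in the changes below was not tested.

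The members are narrow and thinly read. Their median width was 1001 bases (quartiles 651 and 1551), and the median of their mean reads per library was 11.2 (quartiles 3.67 and 51.8). Single strands inside genes had a median of 34.4 reads, single strands at gene starts 647, and the intergenic peaks counted whole 41.5. The default expression filter kept 6020 members (65.4%), against 83.5% of all elements, and left 3182 untested. The submitters mark 8502 members as regulatory and 700 as not, and 72 members carry the name of an overlapping gene although they are placed as intergenic. The shares of element reads on members were 5.55% and 6.59% at 13 h and 5.31% and 5.78% at 24 h, against 6.47%, 7.33% and 8.47% at 0 h, and 8.47% and 9.29% in G1E. An exact permutation test over the 9 libraries and 4 groups gave p = 0.0381 for that share and 0.160 after adjustment over the 9 library measures computed.

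The 10 most-read members held 40.4% of all member reads, and the first 5 each had at most 2653 reads over all libraries on their other strand. The first, chr11:108872700-108873651 on the minus strand between Axin2, a brake on Wnt signalling, and E030025P04Rik, had 342352 and 230793 reads at 13 h and 262143 and 234028 at 24 h, against 520196, 373830 and 1055230 at 0 h, and 830161 and 352992 in G1E. Over all libraries it held 4201725 reads. In CPM it had 7009 and 7262 at 24 h, against 13915, 11616 and 19950.1 at 0 h, a change of -1.09 ± 0.35 on the log2 scale (SE, edgeR adjusted p = 0.0171), which missed the threshold without 0 h replicate 3 (adjusted p = 0.0636), 24 h replicate 1 (0.0963) or 24 h replicate 2 (0.142). The next 4 were a plus element at chr3:5860150-5861001, a plus element at chr6:3150650-3151951, a minus element at chr17:36367900-36370851 and a plus element at chr17:71312850-71313251. The last of them had 3414 CPM in 0 h replicate 3, where the other 0 h libraries had 600 and 448 CPM, and the same library held 9500755 reads of Rn45s, the ribosomal RNA precursor, where the others had 2143119 and 2631738. Whether reads of repeated sequence enter these counts was not tested. The minus element at chr17:36367900-36370851, between the histocompatibility gene H2-T3 and Rpp21, a subunit of the tRNA-trimming enzyme RNase P, fell to 832.7 and 772.1 CPM at 24 h, against 1899, 2018 and 1809.7 CPM at 0 h, a change of -1.25 ± 0.26 on the log2 scale (SE, edgeR adjusted p = 0.00128).

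Strand balance was read on pairs with at least 100 reads per library on average, 1420 of the 4547 pairs. Most of them leaned hard to 1 strand. The strand with more reads over the group means held a median of 87.8% (quartiles 75.7% and 96.3%), 637 pairs had over 90% on it and 123 had over 99%, while 62 pairs were near balance, with under 60%. The same median was 79.9% over 4034 pairs at gene starts and 94.6% over 4020 pairs inside genes, so the intergenic pairs stood between them. The leading strand was the same in every library for 1149 pairs (80.9%). In the 637 pairs with over 90% on 1 strand the plus share spanned a median of 8.25 percentage points from lowest to highest library, in the pairs between 60% and 90% 31.5 points, and in the 62 balanced pairs 59.1 points.

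Balance over the group means therefore did not mean balance in each library. The pair at chr2:103770450-103774801, between Lincred1 and Lmo2, the bridging protein of the red cell transcription factor complex, averaged 49.6% plus over the 4 groups. It had 39.2% and 54.03% plus at 13 h and 26.2% and 16.04% at 24 h, against 66.1%, 72.4% and 65.9% at 0 h, and 64.6% and 60% in G1E. The plus strand led in every 0 h and G1E library and the minus strand in both 24 h libraries. The pair at chr12:88151100-88152951, between Irf2bpl and Lrrc74a, had 39.4% and 16.7% plus at 24 h, against 63.3%, 62.4% and 54.7% at 0 h. The pair at chr1:9775100-9776551, between Vcpip1, a deubiquitinating enzyme, and Sgk3, a kinase, had 65.9% and 78.9% plus at 13 h and 38.9% and 29.1% at 24 h, against 33.3%, 79.2% and 36.99% at 0 h. Its 0 h replicate 2 stood apart from the other 0 h libraries. These pairs were chosen for their mean balance, so their values are a description.

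Library by library, the leading strand was taken anew as the one with more reads in that library, not over the group means as above. The median share on it was 90.5% and 90.6% at 13 h and 92.0% and 94.1% at 24 h, against 87.8%, 92.0% and 91.5% at 0 h, and 85.2% and 88.7% in G1E. The highest was a 24 h library and the lowest a G1E library, and the 0 h libraries overlapped with both groups. The exact permutation test over all 7560 assignments of 9 libraries to 4 groups gave p = 0.119 (0.160 after adjustment over 9 measures). Without 0 h replicate 1 it gave 0.0190, and without any other single library between 0.119 and 0.344. Between 24 h and 0 h the difference was 2.61 percentage points (two-sided exact permutation p = 0.5), where 2 libraries against 3 cannot go below 0.1. Gene-start pairs and pairs inside genes also had their highest library at 24 h, with 84.8% and 97.7%, and a difference between the groups was not shown for any of the 3 kinds of pair.

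**Figure D1:**
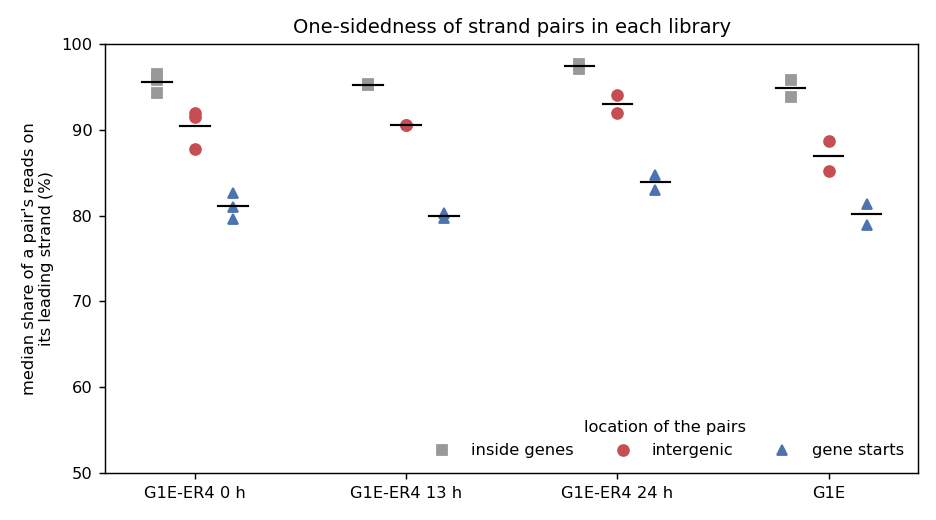
Median share of a pair's reads on its leading strand (%, from 50 to 100) in each of the 9 libraries, for pairs inside genes (squares), intergenic pairs (circles) and pairs at gene starts (triangles). The leading strand is the one with more reads in that library. Each point is 1 library, bars are group means, and the intergenic points lie between 85.2% and 94.1%.

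The strand that led followed the direction of the flanking genes. The deposited table names the gene starts next to each element with their strand. Where both flanking genes run on the plus strand, the median pair had 81.8% of its reads on plus (281 pairs), and where both run on the minus strand it had 17.8% (298 pairs). Between genes that point at the element from both sides the median was 39.6% plus (204 pairs), and between genes that point away from it 52.5% (398 pairs). In the 9 libraries these medians ran from 78.8% to 87.5%, 10.7% to 22.2%, 36.1% to 50.2% and 49.0% to 53.3%, so the ranges of the same-direction pairs did not overlap with any other. Between genes that point away, 71 of 398 pairs had over 90% plus and 74 over 90% minus. Pairs that share a flanking gene are not independent, so no test was made.

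**Figure D2:**
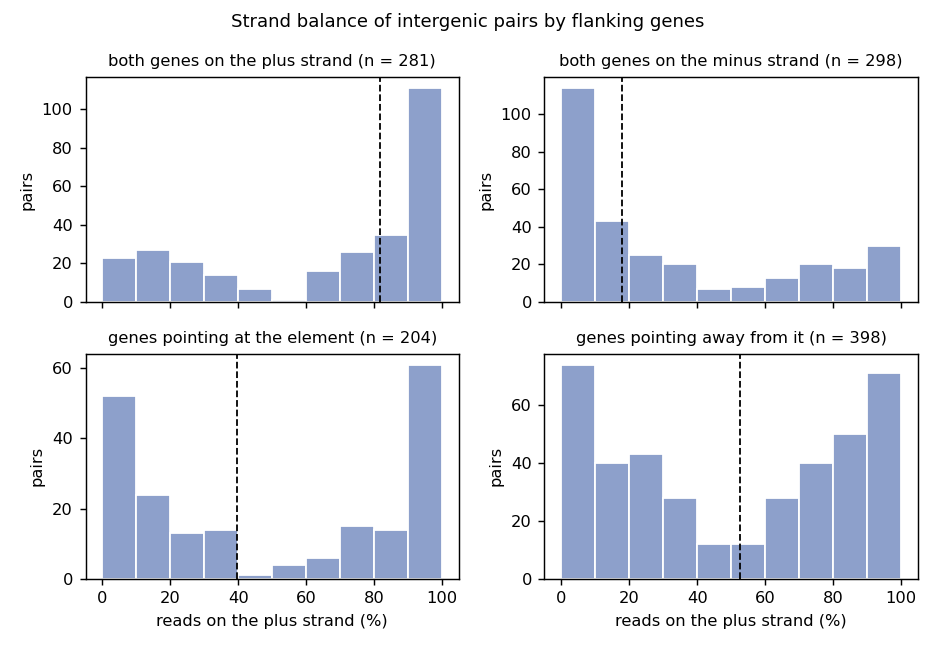
Number of intergenic pairs by the share of their reads on the plus strand (%, bins of 10 points), in 4 panels by the direction of the 2 flanking genes. Dashed lines are the medians, 81.8% between plus genes, 17.8% between minus genes, 39.6% between genes pointing at the element and 52.5% between genes pointing away.

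Set against the nearest listed start, the pairs split by side. On the downstream side, to which the gene is read from its start, a median of 83.3% of reads lay on the gene's own strand (452 pairs). On the upstream side, behind the start, the median was 48.3% (967 pairs). With distance the sides moved in opposite ways. Within 10 kb downstream of the start the share was 91.5% (103 pairs), at 10 to 30 kb 83.8% and at 30 to 100 kb 77.6%. Within 10 kb upstream it was 35.9% (474 pairs), so the strand that runs away from the gene led there, at 10 to 30 kb it was 59.3%, and at 30 to 100 kb 68.8%. Beyond 100 kb, with 25 pairs a side, the medians were 42.3% downstream and 29.4% upstream.

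The balance moved with the level of that nearest gene. Downstream of genes with a gene-body level of 10 to 100 CPM the share on the gene's strand was 90.9% (158 pairs), and over 100 CPM it was 91.0% (77 pairs). Downstream of genes under 1 CPM it was 24.6% (113 pairs), so that the opposite strand led there, and at 1 to 10 CPM it was 71.2% (28 pairs). Upstream the share was 36.2% (280 pairs) and 39.2% (296 pairs) behind genes of 10 to 100 CPM and over 100 CPM, against 76.8% (95 pairs) at 1 to 10 CPM and 68.6% (143 pairs) under 1 CPM. Gene ends were not used, so how far a gene's transcript reaches into an element was not measured. These are medians over pairs that share libraries and genes, given with no test, and the levels are CPM not divided by gene length.

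**Figure D3:**
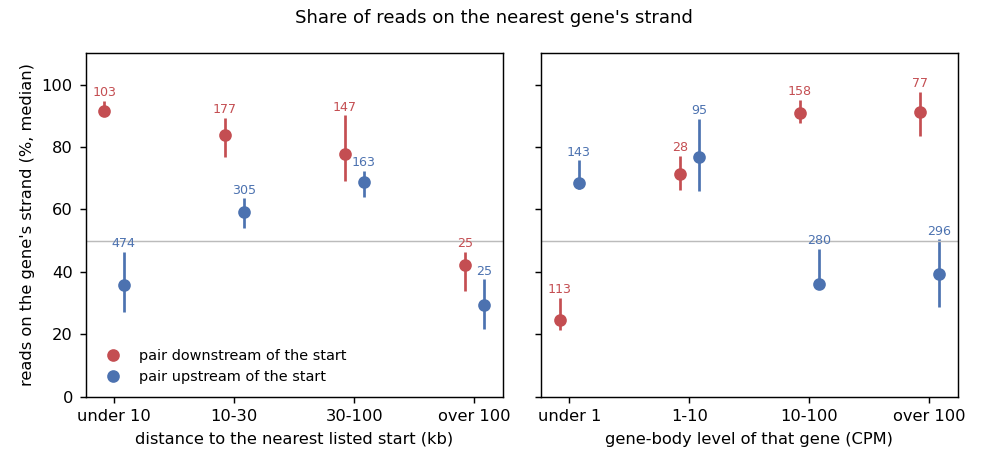
Median share of reads on the strand of the gene with the nearest listed start (%), for pairs downstream (red) and upstream (blue) of that start, by distance (left, kb) and by gene-body level (right, CPM). Bars run from the lowest to the highest of the 9 library medians, numbers are pairs, and the grey line marks 50%.

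Changes of the gene and of the strands went together on 1 side more than on the other. Over 292 downstream pairs the element's change on the gene's strand correlated with the gene-body change at r = 0.49 at 13 h and 0.57 at 24 h against 0 h, while the other strand gave 0.14 and 0.12. Upstream, over 865 pairs, the gene's strand gave 0.25 and 0.22, and the strand that runs away from the gene 0.39 and 0.40. In 0 h against G1E the downstream values were 0.52 and 0.11 and the upstream ones 0.21 and 0.25. These are correlations across pairs with a mean of at least 50 reads, whose points share libraries, scaling and in part the reads of 1 transcript. By library, the upstream share on the gene's strand was 48.4% and 50.9% at 13 h and 46.2% and 43.7% at 24 h, against 53.6%, 51.3% and 52.9% at 0 h, and 53.1% and 50% in G1E. The exact permutation test over the 4 groups gave p = 0.0238, and 0.160 after adjustment over the 9 measures.

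More members were called lower than higher in each of the 4 comparisons, a split that turned at 13 h against 0 h with the scaling of the gene-body table and without 13 h replicate 2. The 13 h and 24 h comparisons share their 0 h libraries, which also enter the comparison with G1E. At 13 h 709 of the 6020 tested members were higher and 936 lower than at 0 h past an adjusted p of 0.05 (edgeR), that is 11.8% and 15.5%, where 15.2% of all tested elements were called higher and 18.6% lower. The 24 h to 0 h comparison had 877 higher and 1868 lower, 14.6% and 31.0%, beside 22.7% and 29.5% of all elements. Relative to 13 h, 126 were higher and 392 lower at 24 h, beside 5.28% and 7.82% of all elements. Relative to G1E, 361 were higher and 713 lower at 0 h, 5.997% and 11.8%, beside 7.18% and 12.1% of all. The share called higher was thus below that of all elements in all 4 comparisons, and the share called lower was above it at 24 h against 0 h; these differences between sets of elements were not tested.

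The median log2 change over tested members was -0.31 at 13 h and -0.64 at 24 h against 0 h, -0.35 at 24 h against 13 h and -0.12 at 0 h against G1E, where all elements had -0.13, -0.18, -0.08 and 0.01. With the scaling of the gene-body table the split at 13 h turned, with 759 members higher and 664 lower, and the median was -0.10 beside 0.06 for all elements. Of the intergenic peaks counted whole, 36.5% were called lower at 13 h and 54.1% at 24 h against 0 h, and 35.9% at 0 h against G1E. Depth differs between these sets. Among elements with at least 300 reads the members were called lower at 24 h against 0 h in 28.0% and all other elements in 21.9%, and called higher in 22.8% and 34.7%. Among elements with 10 to 30 reads 31.2% of members and 38.4% of other elements were called lower.

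**Figure D4:**
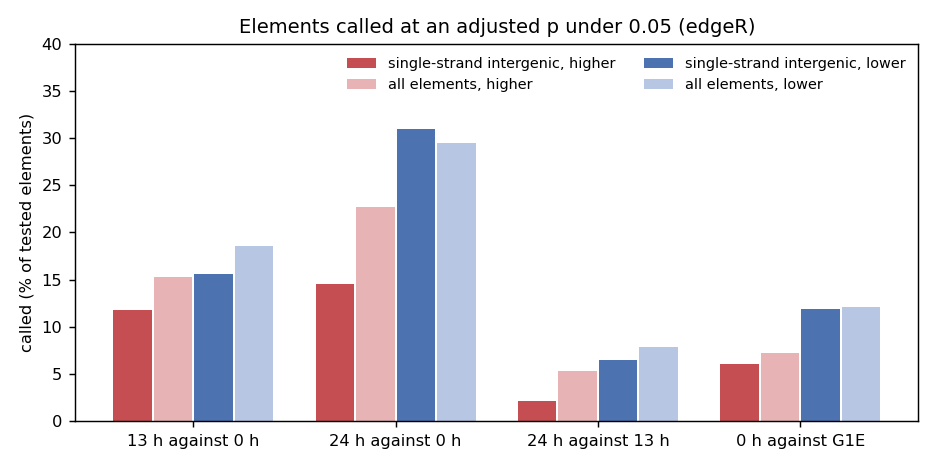
Share of tested elements called higher (red) or lower (blue) at an adjusted p under 0.05 in edgeR (%, axis from 0), for single-strand intergenic elements (dark bars, 6020 tested) and for all elements (light bars, 35158 tested), in the 4 comparisons. At 24 h against 0 h 31.0% of the members and 29.5% of all elements were lower.

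These counts depended on single libraries. Without 13 h replicate 1 the calls at 13 h against 0 h were 443 higher and 492 lower, and without 13 h replicate 2 they were 531 higher and 462 lower, so the split at 13 h turned without that library. Without 24 h replicate 2 the falls at 24 h against 0 h were 1126. The calls at 24 h against 13 h were 14 higher and 44 lower without 24 h replicate 2, 49 and 185 without 13 h replicate 1, 37 and 219 without 13 h replicate 2, and the falls were 194 without 24 h replicate 1. Relative to G1E the calls at 0 h were 74 higher and 177 lower without G1E replicate 1, the rises were 189 without G1E replicate 2, and the falls 470 without 0 h replicate 2.

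In most intergenic pairs with a call, only 1 of the 2 strands passed the test. The same count was not made for pairs at gene starts or inside genes. Whether this is particular to intergenic pairs is therefore not shown. Of 2169 pairs with both strands tested, 974 had at least 1 strand called at 13 h against 0 h, and in 755 of them only 1 strand was. Both strands moved the same way in 196 pairs, 33.4% of those with a plus call and 32.3% of those with a minus call, and in opposite ways in 23. Both moved the same way at 24 h against 0 h in 328 pairs, 88 of them up and 240 down, and in opposite ways in 117. Relative to G1E, 129 pairs moved the same way at 0 h and 6 in opposite ways. A strand that missed the threshold is not shown to be steady. Across the 2169 pairs the strands' log2 changes correlated at r = 0.38, 0.29, 0.25 and 0.47 in the 4 comparisons, as a description over pairs that share libraries and scaling.

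A model of the plus-to-minus ratio within each library tested the balance itself. It does not depend on scaling between libraries, and 4011 intergenic pairs entered it. At 13 h against 0 h 384 pairs (9.57%) shifted past the threshold, 190 towards plus and 194 towards minus, where 16.3% of all strand pairs in the table did, 8.22% towards plus and 8.04% towards minus. The 24 h to 0 h comparison had 858 shifted pairs (21.4%), 413 towards plus and 445 towards minus, where 32.0% of all pairs shifted, 16.0% towards plus and 15.9% towards minus. Relative to 13 h, 50 pairs shifted towards plus and 53 towards minus at 24 h (2.57% in all), where 5.48% of all pairs did, 2.64% and 2.84%. Relative to G1E, 76 shifted towards plus and 82 towards minus at 0 h (3.94% in all), where 4.29% of all pairs did, 2.16% and 2.14%. The gap differed with depth. Among pairs with at least 300 reads the shares for intergenic and for other pairs were 23.8% and 23.2%, 44.1% and 44.3%, 9.48% and 10.5%, and 11.1% and 4.89% in the 4 comparisons. Among pairs with 100 to 300 reads they were 12.5% and 18.8%, 30.1% and 32.3%, 2.80% and 1.68%, and 6.58% and 4.99%. With 30 to 100 reads they were 8.04% and 10.9% at 13 h against 0 h, so a gap remained there at like depth. In 0 h against G1E the well-read intergenic pairs were called more often than the others, and these gaps were not tested.

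The shifts ran about equally to the plus and to the minus strand, and differed in whether they went towards the strand that led elsewhere. The leading strand was taken from the groups outside a comparison. At 13 h against 0 h 194 pairs shifted towards it and 190 away from it, and at 24 h against 0 h 499 and 357. The counts were 64 and 39 at 24 h against 13 h, and 123 and 35 at 0 h against G1E. In that last comparison the outside groups are of the same line as 0 h, so a lasting difference between the lines mostly counts as towards. At 13 h and at 24 h against 0 h the other estradiol time is among the outside groups. A lasting shift under estradiol can therefore count as towards there too. Other pairs tilted too: at 24 h against 0 h gene-start pairs had 916 and 642, and pairs inside genes 1377 and 786. At 0 h against G1E these had 63 and 25, and 244 and 125, and at 13 h against 0 h 213 and 339, and 578 and 814. Full reversals were rare. Among 1903 pairs with at least 50 reads, 6 had under 25% plus in all libraries of 1 group and over 75% in all of the other at 24 h against 0 h, 1 at 13 h against 0 h, 1 at 0 h against G1E and 0 at 24 h against 13 h. Those to plus at 24 h lie between Itpkb and Psen2, a subunit of gamma-secretase, and between Cdc42ep4 and Sdk2. Those to minus lie between Ppdpf and Ptk6, a tyrosine kinase, between Ankrd6 and Rragd, between Capn12 and Lgals7 and between Adrb3 and Got1l1, and the Ppdpf and Ptk6 pair had turned at 13 h already.

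The counts of shifted pairs also rested on few libraries. At 13 h against 0 h there were 107 towards plus and 104 towards minus without 13 h replicate 1, and 108 and 107 without 13 h replicate 2. Without 24 h replicate 2 there were 197 and 204 at 24 h against 0 h, and without 24 h replicate 1 there were 274 towards plus. Between 24 h and 13 h 2 towards plus and 1 towards minus remained without 24 h replicate 2, 30 and 25 without 13 h replicate 1, 20 and 16 without 13 h replicate 2, 26 and 21 without 24 h replicate 1, and 80 and 85 without 0 h replicate 1. Between 0 h and G1E there were 17 and 15 without G1E replicate 1, 35 and 43 without G1E replicate 2, 127 and 136 without 0 h replicate 1, and 49 towards plus without 0 h replicate 3.

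The pair with the clearest gain of a strand lies at chr6:90955600-90960001, between Iqsec1, an activator of the small GTPase ARF6, and Nup210, a nuclear pore protein. Its plus strand had 16.5 and 14.5 CPM at 13 h and 8.34 and 10.2 CPM at 24 h, against 0.0803, 0.0311 and 0.0378 CPM at 0 h, and 0.0224 and 0 CPM in G1E. The induced libraries were far above the others, and the 13 h libraries above the 24 h libraries. The plus strand rose by 8.20 ± 0.44 on the log2 scale (SE, edgeR adjusted p = 7.53e-08) at 13 h and by 7.46 ± 0.44 on the log2 scale (SE, edgeR adjusted p = 5.40e-08) at 24 h. The minus strand was read in all groups and changed by 0.80 (adjusted p = 0.0950) at 13 h and -1.15 (adjusted p = 0.0190) at 24 h. The plus share was therefore 53.6% and 39.2% at 13 h and 65.1% and 67.1% at 24 h, against 1.27%, 0.204% and 0.367% at 0 h, a shift of the log2 ratio of 7.35 ± 0.66 (SE, edgeR adjusted p = 4.01e-07) at 13 h and 8.52 ± 0.67 (SE, edgeR adjusted p = 1.91e-08) at 24 h.

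A minus strand appeared in the same way beside a microRNA gene at chr2:29710750-29713251, 9.50 kb from the start of Mir219a-2 and 11.8 kb from that of Cercam. Its minus strand had 177 and 160 reads at 13 h and 29 and 32 at 24 h, against 2, 0 and 1 at 0 h, and 0 and 0 in G1E. The plus strand had 106 and 107 reads at 13 h, against 82, 87 and 185 at 0 h, a log2 change of 0.00 (adjusted p = 0.9996). The plus share was 37.5% and 40.1% at 13 h and 61.8% and 70.9% at 24 h, against 97.6%, 100% and 99.5% at 0 h, and the shift at 13 h was -7.32 ± 0.94 (SE, edgeR adjusted p = 2.25e-05). The pair lies behind the start of Mir219a-2, a minus-strand gene, so its minus strand runs towards the microRNA.

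The pair at chr11:84496400-84497351, between Lhx1, a developmental homeobox factor, and 1700109G15Rik, had 902 and 666 minus reads at 13 h and 666 and 159 at 24 h, against 22, 9 and 16 at 0 h, and 9 and 3 in G1E. On the plus strand it had 3 and 1 reads at 13 h and 1 and 1 at 24 h, against 14, 4 and 10 at 0 h. The shift towards minus at 13 h was -7.79 ± 0.88 (SE, edgeR adjusted p = 5.22e-06). A neighbouring minus element at chr11:84492650-84493201 followed it, with 6.90 and 5.37 CPM at 13 h and 3.42 and 1.33 CPM at 24 h, against 0.0268, 0.0621 and 0.0756 CPM at 0 h, a rise of 6.68 ± 0.58 on the log2 scale (SE, edgeR adjusted p = 2.86e-06) at 13 h. The elements are neighbours on 1 strand, so they are not separate evidence.

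Smaller strands also came up where 1 strand had been nearly alone. At chr15:6618300-6620101, between Fyb, an adaptor of immune receptor signalling, and Rictor, a subunit of the mTORC2 kinase complex, the minus strand had 17 and 36 reads at 13 h and 31 and 17 at 24 h, against 1, 0 and 0 at 0 h, while the plus strand fell by 1.43 at 13 h and by 2.12 at 24 h on the log2 scale (adjusted p = 0.00468 and 1.98e-04). At chr1:74745150-74746201, between Ttll4 and Cyp27a1, a sterol hydroxylase, the minus strand had 14 and 8 reads at 13 h and 10 and 10 at 24 h, against 0, 0 and 0 at 0 h. The plus share there was still 97.8% and 98.8% at 13 h, so that the shift of the ratio, -6.73 ± 1.12 (SE, edgeR adjusted p = 3.48e-04), rested on a few reads. At chr13:41082850-41084201, between Gcnt2, which makes the branched blood group I sugar, and Pak1ip1, the plus strand had 16 and 48 reads at 13 h and 9 and 14 at 24 h, against 0, 0 and 0 at 0 h, a shift at 13 h of 7.56 ± 1.33 (SE, edgeR adjusted p = 5.91e-04). At chr19:6900550-6901451, 2.98 kb from the start of Mir5046, the plus share was 4.80% and 1.42% at 13 h, against 0 reads on plus in all 0 h libraries. The pair at chr3:19218350-19219601, beside Pde7a, a cyclic AMP phosphodiesterase, lost its 19, 5 and 23 minus reads of 0 h to 0 in both 13 h libraries, a shift towards plus of 6.96 ± 1.58 (SE, edgeR adjusted p = 0.00474), which missed the threshold without 13 h replicate 1 (adjusted p = 0.0673).

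At 24 h the shift towards minus was largest at chr16:64757300-64760351, between Csnka2ip and 4930453N24Rik. Its plus strand had 5 and 4 reads at 13 h and 0 and 0 at 24 h, against 132, 63 and 163 at 0 h, and 362 and 93 in G1E. The minus strand had 1238 and 2125 reads at 24 h, against 1483, 1466 and 2727 at 0 h, a log2 change of 0.12 (adjusted p = 0.739). The plus strand was thus lower by at least 67.9-fold at 24 h, taking 3 reads over the group as the floor, and the ratio shifted by -9.82 ± 0.89 (SE, edgeR adjusted p = 1.41e-07) at 24 h against 0 h.

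The pair at chr4:33056500-33057601, between Ankrd6 and Rragd, a Rag GTPase that ties amino acid supply to the mTORC1 kinase, gained its minus strand. That strand had 18 and 14 reads at 13 h and 80 and 560 at 24 h, against 0, 0 and 1 at 0 h, and 0 in both G1E libraries. The 24 h libraries differed from each other, with 2.14 and 17.4 CPM. The ratio to 0 h over all reads was 1126 (95% counting interval 201.3 to 44526), and the plus share was 5.88% and 4.92% at 24 h, against 100%, 100% and 92.9% at 0 h, where the plus strand had only 1, 5 and 13 reads. The shift was -7.93 ± 1.17 (SE, edgeR adjusted p = 3.39e-05).

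Minus strands were lost on other pairs at 24 h. At chr10:82861800-82863551, between D10Wsu102e and Aldh1l2, a mitochondrial folate enzyme, the minus strand had 0 and 0 reads at 24 h, against 91, 101 and 330 at 0 h, so it was lower by at least 98.9-fold. Its plus strand changed by -0.87 (adjusted p = 0.0906) on the log2 scale. At chr11:107554350-107556001, between Cacng1, a calcium channel subunit, and Mir6932, the minus strand had 0 and 0 reads at 24 h, against 22, 13 and 28 at 0 h, so the plus share was 100% in both 24 h libraries, against 94.9%, 97.2% and 96.4% at 0 h. The ratio shifts towards plus of these pairs were 9.30 ± 1.32 (SE, edgeR adjusted p = 2.17e-05) and 8.08 ± 1.16 (SE, edgeR adjusted p = 2.54e-05). At chr3:79005900-79007351, between Rapgef2 and 4921511C10Rik, it was the plus strand that went to 0 and 0 reads at 24 h, against 47, 23 and 44 at 0 h, a shift of -7.90 ± 1.41 (SE, edgeR adjusted p = 2.49e-04).

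**Figure D5:**
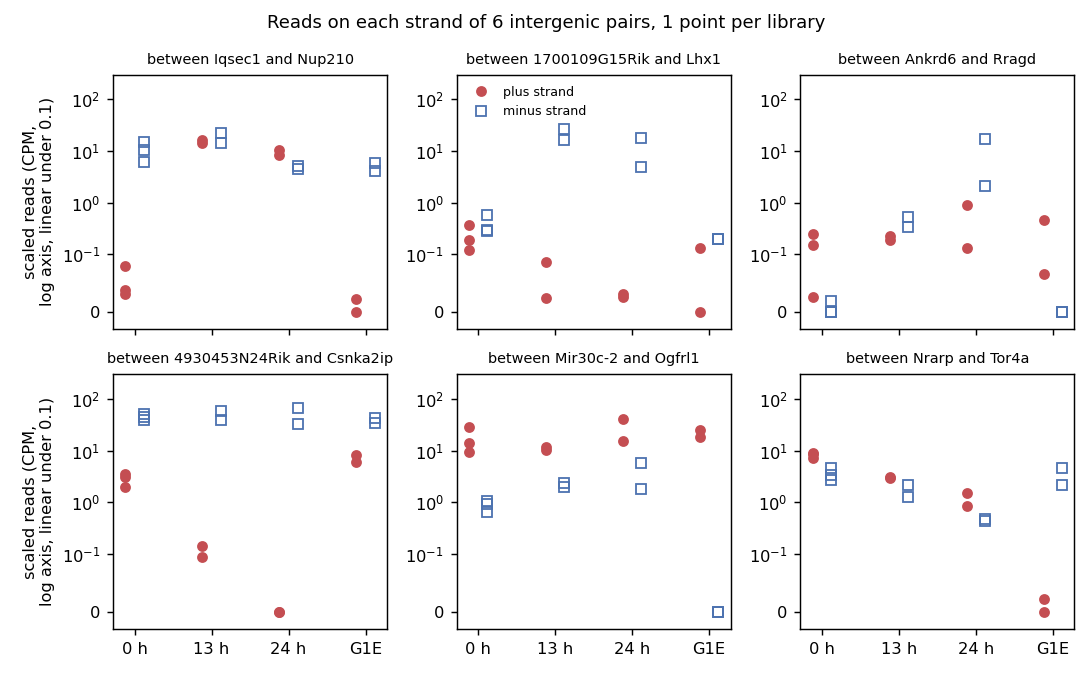
Scaled reads (CPM, on an axis that is logarithmic above 0.1 and linear below) on the plus strand (filled circles) and the minus strand (open squares) of 6 intergenic pairs, with 1 point per library and the groups 0 h, 13 h, 24 h and G1E from left to right. The plus strand between Iqsec1 and Nup210 lies at 14.5 and 16.5 CPM at 13 h and at 0.0803 CPM or less at 0 h.

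Between 24 h and 13 h the steadiest named shift lies at chr17:71266850-71271101, between Tgif1, a homeobox repressor, and Myl12b, a myosin light chain. Its plus strand had 8 and 3 reads at 24 h, against 121 and 163 at 13 h, and its minus strand 535 and 990 against 1016 and 783. The plus share was 1.47% and 0.302% at 24 h, against 10.6% and 17.2% at 13 h, a shift of -4.36 ± 0.63 (SE, edgeR adjusted p = 5.22e-04) that passed in every alternative run. The pairs at Aldh1l2 and at 4930453N24Rik, and pairs beside Rfc4, a subunit of the DNA clamp loader, and between 1700122C19Rik and Exoc6 also passed at 24 h against 13 h, with adjusted p between 0.0315 and 0.0465. Each of them missed it when 24 h replicate 2 was left out (adjusted p of 0.275 to 0.385), and also without 24 h replicate 1 (0.119 to 0.167) and without 1 or both of the 13 h libraries (0.0525 to 0.249). The pairs at 4930453N24Rik and Exoc6 missed it without either G1E library as well (0.0502 to 0.0584), and with a minimum of 50 reads these and the pair beside Rfc4 did too (0.0501 to 0.0646).

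At 0 h against G1E, before any estradiol, several pairs had a strand in 1 line only. At chr2:25040700-25042301, 4.42 kb from the start of Nrarp, a feedback inhibitor of Notch signalling, the plus strand had 333, 234 and 448 reads at 0 h, against 1 and 0 in G1E, and the minus strand 174, 87 and 183, against 97 and 71. The plus share was 65.7%, 72.9% and 71.00% at 0 h, against 1.02% and 0% in G1E, a shift of 8.36 ± 0.96 (SE, edgeR adjusted p = 1.28e-05). The plus strand's reads were 494.7 (95% counting interval 88.6 to 19558) times those of G1E after scaling. It was lower again under estradiol, with 3.09 and 2.95 CPM at 13 h and 1.52 and 0.838 CPM at 24 h, against 8.91, 7.27 and 8.47 CPM at 0 h.

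At chr1:23301050-23302751, 2.51 kb past the start of Mir30c-2, the minus strand had 24, 34 and 49 reads at 0 h, against 0 in both G1E libraries, and the plus strand 347, 448 and 1528, against 1121 and 274. The minus strand was at least 17.4-fold higher than in G1E. The plus share was 93.5%, 92.9% and 96.9% at 0 h, a shift of -8.50 ± 1.16 (SE, edgeR adjusted p = 1.34e-04), which missed the threshold without G1E replicate 1 (adjusted p = 0.0550). At chr11:21074250-21074901, between Peli1, a ubiquitin ligase of immune signalling, and Vps54, a vesicle tether, the minus strand had 673, 329 and 592 reads at 0 h, against 20 and 6 in G1E, and the shift was -7.92 ± 1.04 (SE, edgeR adjusted p = 6.32e-05). A minus element chr11:21082700-21083501 beside it had 17.6, 11.4 and 10.1 CPM at 0 h, against 0 and 0.0663 CPM in G1E.

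The opposite case, a strand in G1E that 0 h lacked, lay at chr17:73596100-73597751, between Lclat1, a cardiolipin acyltransferase, and Capn13, a calpain. Its minus strand had 0, 0 and 1 reads at 0 h, against 165 and 52 in G1E, while the plus strand had 154, 199 and 260, against 346 and 135. The shift towards plus was 7.54 ± 0.98 (SE, edgeR adjusted p = 7.42e-05). A minus element just before it, chr17:73593750-73595151, had 0.134, 0.0311 and 0.132 CPM at 0 h, against 12.9 and 8.75 CPM in G1E, a change of -6.66 ± 0.60 on the log2 scale (SE, edgeR adjusted p = 3.63e-06). At chr2:104338050-104338901, 3.40 kb from the start of Hipk3, a protein kinase, the minus strand had 1, 1 and 3 reads at 0 h, against 63 and 26 in G1E, a shift of 6.65 ± 0.94 (SE, edgeR adjusted p = 1.83e-04). Named shifts between Esrrb and Gpatch2l, at Gm14405 and between Amotl1 and Piwil4 missed the threshold without G1E replicate 1 (adjusted p of 0.115, 0.424 and 0.0763). The first and the second missed it without G1E replicate 2 as well (0.0881 and 0.104), and the second without 0 h replicate 2 (0.0565).

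Among single elements, the largest rise at 13 h was the one between Iqsec1 and Nup210, with listed starts 195.5 and 106.8 kb away. After it came the minus element between Lhx1 and 1700109G15Rik, given above, and 3 others. The Lhx1 element lies 153.6 kb from the start of Lhx1 and 40.7 kb from that of 1700109G15Rik. The plus element chr15:81819900-81822401, between 1700029P11Rik and Xrcc6, a DNA end-joining protein, had 4.56 and 4.75 CPM at 13 h and 2.38 and 2.51 CPM at 24 h, against 0.0803, 0.0311 and 0.0378 CPM at 0 h, and 0 in G1E. It rose by 6.47 ± 0.53 on the log2 scale (SE, edgeR adjusted p = 3.21e-06) at 13 h. The minus element chr2:24978300-24979951, between Noxa1, an activator of NADPH oxidase, and Nrarp, had 22.8 and 15.7 CPM at 13 h and 4.97 and 2.98 CPM at 24 h, against 0.375, 0.249 and 0.132 CPM at 0 h. It rose by 6.28 ± 0.48 on the log2 scale (SE, edgeR adjusted p = 1.12e-06) and stood 77.7-fold higher, and both 24 h libraries were below both 13 h libraries.

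The largest falls at 13 h lasted to 24 h. The minus element chr8:80661750-80664051, 73.2 kb from Ttc29 and 413.4 kb from Ednra, the endothelin A receptor, had 0.260 and 0.0480 CPM at 13 h and 0 and 0.0310 CPM at 24 h, against 7.998, 8.67 and 18.5 CPM at 0 h, and 111.7 and 129.5 CPM in G1E. It was 78.7-fold lower at 13 h, -6.30 ± 0.60 on the log2 scale (SE, edgeR adjusted p = 1.22e-05). The plus element chr2:33257800-33260601, between Ralgps1 and the zinc finger gene Zbtb34, had 0.0578 and 0.0959 CPM at 13 h, against 6.69, 4.97 and 4.58 CPM at 0 h, a change of -6.05 ± 0.54 on the log2 scale (SE, edgeR adjusted p = 3.83e-06). A minus element between Mboat2 and Kidins220, a membrane scaffold of neurotrophin signalling, had 0.116 and 0.168 CPM at 13 h, against 5.43, 3.64 and 4.67 CPM at 0 h, a change of -4.97 ± 0.58 on the log2 scale (SE, edgeR adjusted p = 2.92e-05). Elements beside Psg26 and Psg28 and beside Cd55b were also among the 5, but these are families of near-identical copies, so where their reads belong is uncertain. The one beside Cd55b missed the threshold without 13 h replicate 1 (adjusted p = 0.145) or 2 (0.149).

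Beside those named, the largest rises at 24 h against 0 h were at 3 loci. The plus element chr6:136894750-136895351, 4.33 kb from the nearest listed start, beside Arhgdib, had 7.16 and 8.37 CPM at 13 h and 87.7 and 66.8 CPM at 24 h, against 0.161, 0.218 and 0.189 CPM at 0 h, and 2.04 and 0.928 CPM in G1E. It climbed in both steps, by 8.66 ± 0.37 on the log2 scale (SE, edgeR adjusted p = 4.69e-09) at 24 h against 0 h and by 3.31 ± 0.33 on the log2 scale (SE, edgeR adjusted p = 1.64e-04) at 24 h against 13 h. The minus element chr7:29655550-29657301, between Lgals7, a galectin, and Capn12, a calpain, had 12.6 and 28.1 CPM at 24 h, against 0.134, 0.0311 and 0.227 CPM at 0 h, a rise of 7.13 ± 0.59 on the log2 scale (SE, edgeR adjusted p = 8.12e-07). The minus element chr1:88970750-88972951, between Dis3l2, an RNA-degrading exonuclease, and Alppl2, had 22.4 and 26.7 CPM at 24 h, against 0.268, 0.124 and 0.189 CPM at 0 h, a rise of 6.95 ± 0.39 on the log2 scale (SE, edgeR adjusted p = 4.12e-08). Of the falls, the minus element chr16:33769600-33770401, between Heg1 and the mucin gene Muc13, lost all its reads: both 24 h libraries had 0, against 65, 18 and 70 at 0 h, a difference of at least 29.00-fold.

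Between 24 h and 13 h 2 rises stood out in elements that had not risen at 13 h. The minus element chr8:96706200-96707551, 3.21 kb past the start of Mt1, a metallothionein that binds zinc and copper, had 5.56 and 6.83 CPM at 24 h, against 0.491 and 0.336 CPM at 13 h, and 2.03, 2.18 and 2.19 CPM at 0 h. The 13 h libraries were the lowest of the 3 times, and the rise was 3.90 ± 0.43 on the log2 scale (SE, edgeR adjusted p = 3.28e-04). The minus element chr8:77604950-77609051, 8.47 kb before the start of Hmox1, the haem-degrading oxygenase, had 53.6 and 66.7 CPM at 24 h, against 10.6 and 6.91 CPM at 13 h, and 14.2, 16.3 and 14.2 CPM at 0 h, a rise of 2.78 ± 0.30 on the log2 scale (SE, edgeR adjusted p = 3.28e-04). A minus element between Amn1 and 2810474O19Rik rose by 2.93 ± 0.53 on the log2 scale (SE, edgeR adjusted p = 0.00448), which missed the threshold without 24 h replicate 2 (adjusted p = 0.0713) and with the leading digits of the number in the sample titles as a block, called the title number here (0.0900).

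Higher at 0 h than in G1E, the plus element chr5:12354450-12355301, 27.9 kb before the nearest listed start and beside Sema3d, a semaphorin, had 3.66, 9.66 and 7.56 CPM at 0 h, against 0 in both G1E libraries. It was at least 137.8-fold higher and stayed at 4.25 and 5.59 CPM at 13 h and 9.46 and 9.43 CPM at 24 h. Among the falls, the plus element chr10:127314400-127317101, between BC089597 and Rdh7, a retinol dehydrogenase, had 1.74, 1.52 and 2.80 CPM at 0 h, against 59.1 and 67.3 CPM in G1E, -4.95 ± 0.30 on the log2 scale (SE, edgeR adjusted p = 1.02e-07). The minus element chr4:129554150-129555851, between E330017L17Rik and Ptp4a2, a phosphatase, had 0.134, 0 and 0.113 CPM at 0 h, against 9.87 and 5.44 CPM in G1E. The plus element chr15:36609200-36611551, between Pabpc1, the poly(A)-binding protein, and Ywhaz, a 14-3-3 protein, had 1.69, 0.715 and 1.15 CPM at 0 h, against 30.4 and 26.3 CPM in G1E, -4.57 ± 0.49 on the log2 scale (SE, edgeR adjusted p = 2.72e-05). In each of these the groups did not overlap.

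Elements beside chosen red cell and progenitor genes were followed next. Of all tested members 11.8% rose and 15.5% fell at 13 h against 0 h, and 14.6% and 31.0% at 24 h. Of all tested elements 15.2% rose and 18.6% fell at 13 h, and 22.7% and 29.5% at 24 h. The counts beside each gene are to be read against these shares. First came Zfpm1, which encodes FOG1, the partner protein of GATA1. It neighbours 13 members, of which 10 were tested, and 8 of these rose at 13 h and 8 at 24 h against 0 h with 0 falling. The minus element chr8:124765600-124767201, 38.8 kb before the start, had 62.1 and 23.3 CPM at 13 h and 14.6 and 20.05 CPM at 24 h, against 0.883, 0.280 and 0.548 CPM at 0 h, a rise of 6.20 ± 0.48 on the log2 scale (SE, edgeR adjusted p = 1.69e-06) at 13 h. Its pair lost balance, with 1.87% and 1.82% plus at 13 h and 5.87% and 3.29% at 24 h, against 45.9%, 50% and 23.7% at 0 h, a shift of -5.08 ± 0.65 (SE, edgeR adjusted p = 1.95e-05) at 13 h. The peak 7.59 kb before the start rose on both strands at 13 h. Its minus strand had 15.7 and 25.4 CPM at 13 h, against 0.883, 1.18 and 1.04 CPM at 0 h, a rise of 4.31 ± 0.33 on the log2 scale (SE, edgeR adjusted p = 1.07e-06). Its plus strand had 0.693 and 1.13 CPM, against 0.348, 0.155 and 0.170 CPM, a rise of 2.01 ± 0.66 on the log2 scale (SE, edgeR adjusted p = 0.0291) that missed the threshold without 0 h replicate 2 (adjusted p = 0.0762), 0 h replicate 3 (0.0800) or 13 h replicate 2 (0.176), and with the replicate number as a block (0.0575).

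Past the start, 2 peaks at chr8:124863950-124865401 and chr8:124866000-124870251 lay 57.9 and 59.96 kb downstream of it on the gene's plus strand. The plus strand of the first had 294.2 and 359.1 CPM at 13 h and 338.9 and 345.7 CPM at 24 h, against 40.9, 77.3 and 91.4 CPM at 0 h, and 259.6 and 138.3 CPM in G1E. Its minus strand had 2.05 and 1.75 CPM at 13 h, against 0.535, 0.280 and 0.567 CPM at 0 h, and both strands rose, by 2.22 ± 0.32 on the log2 scale (SE, edgeR adjusted p = 2.04e-04) and 2.02 ± 0.47 on the log2 scale (SE, edgeR adjusted p = 0.00472). The plus strand of the second had 281.5 and 294.0 CPM at 13 h and 118.1 and 70.5 CPM at 24 h, against 27.2, 47.3 and 34.7 CPM at 0 h, and was higher at 13 h than in any other library. The rise of the second peak's minus strand at 24 h missed the threshold without 24 h replicate 1 (adjusted p = 0.289). All 4 strands were called lower at 0 h than in G1E, and all 4 calls were lost without G1E replicate 1 (adjusted p of 0.0568 to 0.520). Those of the second peak were lost also without 0 h replicate 3 (0.0826 for plus and 0.0613 for minus), and its plus strand without 0 h replicate 1 (0.0845) and without either 13 h library (0.0520 and 0.0507). With the replicate number as a block both strands of the second peak lost that call too (0.141 for plus and 0.0504 for minus), and with gene-body scaling its plus strand did (0.0558).

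Beside Alas2, the first enzyme of red cell haem synthesis, 6 members were all tested, and 3 rose at 13 h and 3 at 24 h against 0 h. All 3 are plus strands of peaks upstream of Alas2, which runs on the plus strand. At chrX:146924300-146926451, 55.5 kb before the start, the plus strand had 10.6 and 6.79 CPM at 13 h and 14.7 and 28.2 CPM at 24 h, against 0.375, 0.249 and 0.113 CPM at 0 h, and 0.224 and 0.530 CPM in G1E. It rose by 5.18 ± 0.49 on the log2 scale (SE, edgeR adjusted p = 5.51e-06) at 13 h and by 6.48 ± 0.50 on the log2 scale (SE, edgeR adjusted p = 4.47e-07) at 24 h. At chrX:146920700-146923751 the plus strand had 3.58 and 3.96 CPM at 13 h and 4.12 and 10.7 CPM at 24 h, against 0.0803, 0.155 and 0.132 CPM at 0 h. The ratio shifted with it. The pair nearest the start had 50.6% and 43.1% plus at 13 h and 65.3% and 75.1% at 24 h, against 4.29%, 2.68% and 0.733% at 0 h, shifts of 5.30 ± 0.62 (SE, edgeR adjusted p = 7.34e-06) and 6.74 ± 0.64 (SE, edgeR adjusted p = 1.65e-07). At chrX:146920700-146923751 the plus share was 58.5% and 49.1% at 13 h and 43.5% and 57.5% at 24 h, against 3.66%, 4.27% and 1.04% at 0 h, shifts of 5.62 ± 0.75 (SE, edgeR adjusted p = 2.68e-05) and 5.44 ± 0.75 (SE, edgeR adjusted p = 1.29e-05). The minus strand led in every 0 h and G1E library of both pairs, and the strands stood near balance or with plus ahead after estradiol. Both pairs were chosen for their gene and because they passed the test.

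The third Alas2 element, at chrX:146912100-146913501, had 4.33 and 4.51 CPM at 13 h and 3.42 and 8.19 CPM at 24 h, against 1.31, 2.18 and 1.93 CPM at 0 h. Its rise of 1.68 ± 0.40 on the log2 scale (SE, edgeR adjusted p = 0.00319) at 24 h missed the threshold without 24 h replicate 2 (adjusted p = 0.0771), and its rise at 13 h without 0 h replicate 1 (0.0596), 13 h replicate 1 (0.0761) or 13 h replicate 2 (0.0890).

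Gata2, the GATA factor of progenitors, gave the reverse. Of 6 members, all tested and all upstream of its start, 3 fell at 13 h and 5 at 24 h against 0 h, with 0 rising. The minus element chr6:88094250-88096001 had 0.376 and 0.647 CPM at 13 h and 0.455 and 0.559 CPM at 24 h, against 11.4, 14.6 and 22.7 CPM at 0 h, and 8.88 and 15.1 CPM in G1E, a change at 13 h of -4.97 ± 0.46 on the log2 scale (SE, edgeR adjusted p = 5.08e-06). On the plus strand the levels were 2.02 and 1.70 CPM at 13 h and 0.187 and 0.248 CPM at 24 h, against 3.21, 2.92 and 6.58 CPM at 0 h, and passed the test at 24 h, with -4.27 ± 0.61 on the log2 scale (SE, edgeR adjusted p = 6.37e-05), but not at 13 h. The plus share was 84.3% and 72.4% at 13 h and 29.2% and 30.8% at 24 h, against 22.02%, 16.6% and 22.5% at 0 h, and 11.8% and 16.2% in G1E. The leading strand thus changed at 13 h, a shift of 3.84 ± 0.59 (SE, edgeR adjusted p = 1.15e-04), and changed back at 24 h, a shift against 13 h of -3.08 ± 0.74 (SE, edgeR adjusted p = 0.0198), when 7 and 8 plus reads and 17 and 18 minus reads were left. The return missed the threshold without 13 h replicate 1 (adjusted p = 0.0998), 24 h replicate 1 (0.0939) or 24 h replicate 2 (0.206).

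At the peak nearest the start of Gata2, chr6:88139100-88140951, 7.71 kb before it, the minus strand had 22.9 and 19.6 CPM at 13 h and 17.5 and 12.7 CPM at 24 h, against 63.1, 72.96 and 96.9 CPM at 0 h, a change at 13 h of -1.87 ± 0.24 on the log2 scale (SE, edgeR adjusted p = 6.25e-05). Its plus strand had 10.3 and 26.95 CPM at 13 h and 6.36 and 2.92 CPM at 24 h, against 22.5, 32.5 and 28.1 CPM at 0 h, a change at 24 h of -2.57 ± 0.43 on the log2 scale (SE, edgeR adjusted p = 3.00e-04). The 13 h libraries of that strand lay on both sides of the lowest 0 h library, and its ratio to the minus strand passed the test in no comparison.

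Kit, the receptor for stem cell factor, neighbours 16 members, of which 7 were tested. At 24 h against 0 h 3 of these fell, on means of 6.67 to 20.2 reads a library, beside 31.0% of all tested members. The plus elements at chr5:76075850-76076451 and chr5:76234550-76234951 lie 104.8 and 263.5 kb past the start of Kit, the second 139.5 kb from that of Kdr. The minus element at chr5:75606900-75607601 has unnamed listed starts 34.0 and 363.4 kb away. Each of the 3 missed the threshold without 24 h replicate 2 (adjusted p of 0.0947 to 0.180), and the least read one also without 24 h replicate 1 (0.0552) or 0 h replicate 1 (0.0546), with the title number as a block (0.107) and in DESeq2 (0.0735). The least read one was also called lower at 13 h against 0 h, with -5.94 ± 1.55 on the log2 scale (SE, edgeR adjusted p = 0.0100). That call did not hold without either 13 h library. A gain lay at chr5:76252800-76253601, 281.8 kb past the start of Kit and 120.9 kb from that of Kdr. It had 16 and 17 plus reads at 13 h and 3 and 2 at 24 h, against 0, 0 and 1 at 0 h. The scaled ratio at 13 h was 52.95 (95% counting interval 8.86 to 2154). Myb, a progenitor transcription factor, neighbours 6 members, of which 4 were tested, and 3 fell at 24 h against 0 h. They lie 89.4 to 92.5 kb upstream of Myb towards Hbs1l, and at chr10:20970200-20972651 the plus strand had 0.0802 and 0.0310 CPM at 24 h, against 2.11 and 0.959 CPM at 13 h and 0.803, 1.96 and 2.38 CPM at 0 h, while the minus strand had 0.376 and 0.264 CPM at 13 h and 0.0535 and 0.0621 CPM at 24 h, against 1.58, 0.963 and 1.83 CPM at 0 h. Myc, the growth regulator, neighbours 2 members, and the minus one at chr15:61860350-61862201 went to 0 reads in both 24 h libraries, against 16, 7 and 12 at 0 h, a fall of at least 6.63-fold.

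Slc4a1, the band 3 anion exchanger of the red cell membrane, neighbours 4 members. At chr11:102185550-102186951, 39.6 kb downstream of its start towards Ubtf, the minus strand had 0.116 and 0.264 CPM at 13 h and 1.63 and 1.64 CPM at 24 h, against 0.0535, 0.0621 and 0.302 CPM at 0 h, a rise at 24 h of 3.43 ± 0.70 on the log2 scale (SE, edgeR adjusted p = 0.00108). The plus strand there had 3.12 and 1.65 CPM at 13 h and 2.86 and 8.72 CPM at 24 h, against 5.14, 6.28 and 7.03 CPM at 0 h. It was lower at 13 h, with -1.37 ± 0.46 on the log2 scale (SE, edgeR adjusted p = 0.0334), and missed the threshold with gene-body scaling (adjusted p = 0.0580), the replicate number (0.0896) or the title number (0.0868) as a block, and without 0 h replicate 2 (0.0581), 0 h replicate 3 (0.0860) or 13 h replicate 2 (0.233). Tal1, a red cell transcription factor, neighbours 2 members at chr4:114746900-114749001, where the plus strand had 4.91 and 6.62 CPM at 13 h and 12.1 and 15.2 CPM at 24 h, against 7.54, 18.6 and 14.3 CPM at 0 h. Its change at 13 h, -1.22 ± 0.36 on the log2 scale (SE, edgeR adjusted p = 0.0169), missed the threshold without 0 h replicate 2 (adjusted p = 0.0632) or 13 h replicate 1 (0.124). The minus strand of the Tal1 peak was called lower at 24 h against 0 h, which did not hold without 24 h replicate 2 (log2 change -1.40). Its plus strand was called higher at 24 h against 13 h. That call was lost with library totals (edgeR adjusted p = 0.0702), gene-body scaling (0.0849) or the title number as a block (0.236). It was also lost without several single libraries, among them each 13 h and each 24 h library. Hbb-b1 and Cpa3 neighbour 0 members.

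An element chosen after its values were seen lies beside Mir21a, at chr11:86394200-86396401 on the minus strand, 1.26 kb past the microRNA's listed start, so that it is read on the microRNA's own strand. It had 1074 and 648.9 CPM at 13 h and 1529 and 2291 CPM at 24 h, against 407.4, 486.8 and 499.3 CPM at 0 h, and 307.5 and 370.6 CPM in G1E. Each later time was higher, the groups did not overlap, and the plus strand held 1.05% or less of the pair's reads in every G1E-ER4 library. The change was 2.04 ± 0.26 on the log2 scale (SE, edgeR adjusted p = 2.35e-05) at 24 h against 0 h, and 0.89 ± 0.26 on the log2 scale (SE, edgeR adjusted p = 0.0154) at 13 h against 0 h, which missed the threshold without 13 h replicate 1 (adjusted p = 0.260). Between 24 h and 13 h it was 1.15 ± 0.29 on the log2 scale (SE, edgeR adjusted p = 0.0201), which missed it without 13 h replicate 2 (0.151) or 24 h replicate 2 (0.167), and with the title number as a block (0.234).

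Over all tested members 11.8% rose and 15.5% fell at 13 h against 0 h, and 14.6% rose and 31.0% fell at 24 h, where all elements had 15.2%, 18.6%, 22.7% and 29.5%, and the lists below are to be read against these shares. By lists of neighbouring genes, called members beside haem synthesis genes were all higher under estradiol. Of 12 tested, which flank 4 genes, 5 rose at 13 h and 6 at 24 h against 0 h and 0 fell, with a median log2 change of 0.78 and 1.17, beside -0.31 and -0.64 over all tested members. The 3 rises beside Alas2 are among them at each time. Beside stem and progenitor regulators 38 were tested, and 1 rose and 10 fell at 13 h, and 0 rose and 21 fell at 24 h, with medians of -1.06 and -1.89. Beside iron uptake and storage genes 26 were tested, and 0 rose and 4 fell at 13 h, and 0 rose and 7 fell at 24 h, with medians of -0.84 and -0.85. These falls are close to the share over all members at both times. Beside erythroid transcription factors 50 were tested, and 14 rose and 7 fell at 13 h, and 14 rose and 18 fell at 24 h, with medians of 0.30 and -0.45. The 8 rises beside Zfpm1 are part of those 14 at each time.

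Beside red cell membrane genes 14 were tested, and 1 rose and 2 fell at 13 h, and 2 rose and 4 fell at 24 h, with a median of -1.21 at 24 h. Beside globin genes 3 were tested and 1 rose at each time, and beside ribosome biogenesis genes 1 was tested and fell at both. Beside textbook oestrogen receptor targets 19 were tested, and 2 rose and 8 fell at 13 h, and 1 rose and 10 fell at 24 h, with Myb in both this list and that of progenitor regulators. Beside megakaryocyte markers 8 were tested, and 1 rose and 0 fell at 13 h, and 1 rose and 2 fell at 24 h. Beside mast cell markers 4 were tested, with 0 rising and 1 falling at 13 h and 1 each way at 24 h, and beside granulocyte, monocyte and lymphocyte markers 3, with 0 called at 13 h and 2 falling at 24 h. Between 24 h and 13 h 6.51% of all tested members and 7.82% of all elements fell, and 2.09% and 5.28% rose. Beside stem and progenitor regulators 6 of 38 fell and 1 rose, and beside erythroid transcription factors 4 of 50 fell and 3 rose. Beside red cell membrane genes 3 of 14 fell and 1 rose. At 0 h against G1E 11.8% of tested members and 12.1% of all elements fell. The erythroid transcription factors had 10 falls and 2 rises of 50 tested there. Of these falls 5 lie beside Zfpm1, and all 5 calls were lost without G1E replicate 1 (edgeR adjusted p of 0.0568 to 0.520). Neighbours are named by position alone, and members of 1 list can share a gene, so these counts are given with no test of the lists.

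The 108 peaks with 1 strand only were as thinly read as the rest, with a median of 10.7 reads, and 78 of them were tested. The missing strand of these peaks is not listed in any location class, so they entered no test of balance.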

How the data were processed

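PRO-seq of 9 libraries in 4 groups was analysed from the deposited tables of counts, whole numbers of reads per dREG element and per gene body. Per the submitters' processing notes BWA and mm9 were used; a BWA version, a read counter and an annotation were not given in the sources used here. The location, strand and neighbouring genes of an element are the authors' own columns.

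From these counts, edgeR 4.0.16 in R 4.3.3 was run on all elements (TMM scaling, default expression filter, quasi-likelihood test over the 4 groups, Benjamini-Hochberg adjustment over 35158 elements, threshold 0.05), and CPM are TMM-scaled. Strand balance was tested with the same tool on the plus and minus counts of 14330 pairs, each library a block, with a strand-by-group term; its changes are log2 plus-to-minus ratios. Measures of 1 value per library had exact permutation tests that went through all assignments of libraries to groups (Python 3.11.15). Folds against groups at 0 take 3 reads over the group as a floor, and counting intervals are exact at 95% and cover counting error only. Gene starts were named by matching listed starts and names. No spread other than that between libraries was available.

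The members, gene lists and tests were chosen with earlier results of these data known. Named per comparison were the 5 largest rises and falls with at least 50 reads and groups that do not overlap, the 4 largest shifts each way, the 4 most balanced and most 1-sided pairs with at least 200 reads, the 5 most-read members, and called members beside 10 chosen genes. Called pairs beside Alas2, Gata2, Zfpm1 and Mir21a were added after seeing the data. Elements on chromosome 18 and some other elements and pairs that these rules named are not described singly here. Alternatives were other scalings, filters, read minimums, tools, blocks and leaving out each library. The scripts were tested on simulated data, at 24 h against 0 h. The element test recovered 39% of 2-fold and 100% of 4-fold changes. The balance model recovered 25% of 4-fold and 75% of 16-fold shifts, in pairs with at least 100 reads. An element or pair that was not called is therefore not shown to be steady.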

Additional observations from a re-analysis of the deposited data

How the results depend on the processing

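Most counts of calls held within 1.5 times of those reported under the other scalings, filters, tools and blocks. The exceptions are these, and the pair counts at 24 h against 13 h with the replicate block, given further down. The title number was tried as a block for members only. At 24 h against 13 h members higher numbered 73 with library totals, 64 with gene-body scaling, 213 with the replicate block and 13 with the number in the title as a block, and members lower 153 with that title number. At 0 h against G1E members lower numbered 438 with the title number as a block. Pairs shifted towards minus at 24 h against 13 h numbered 32 with limma 3.58.1 on the log ratio. Leaving out 1 library at a time gave, for members higher and lower, 443 to 781 and 462 to 984 at 13 h against 0 h, 595 to 1012 and 1126 to 2038 at 24 h against 0 h, 14 to 188 and 44 to 525 at 24 h against 13 h, and 74 to 414 and 177 to 838 at 0 h against G1E. For pairs towards plus and minus it gave 107 to 207 and 104 to 228, 197 to 416 and 204 to 444, 2 to 80 and 1 to 85, and 17 to 127 and 15 to 136. The exact p for strand balance over the 4 groups ran from 0.0190, without 0 h replicate 1, to 0.344, without G1E replicate 1. Under other read minimums, thinning and another measure it ran from 0.0587 to 0.138, the last with an alternative chosen after seeing the data (20 reads in the library itself).

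The replicate block changed the pair counts at 24 h against 13 h to 102 towards plus and 121 towards minus. Same-numbered 0 h and 13 h libraries deviated together from their group means (r = 0.52 and 0.51), and the other same-numbered pairs had r of -0.08 to 0.23. The 13 h group holds 2 libraries, whose deviations mirror each other. The -0.52 and -0.51 of the crossed pairings were thus fixed in advance and add no evidence. The labels do not say what a number marks, so whether it pairs the 0 h and 13 h libraries was not settled. With the block 668 members were higher and 814 lower at 13 h against 0 h, 987 and 1783 at 24 h against 0 h, 213 and 511 at 24 h against 13 h, and 320 and 649 at 0 h against G1E.

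Scaling moved the median log2 change of all elements at 13 h against 0 h from -0.13 to -0.10 with DESeq2 size factors, -0.06 with library totals and 0.06 with gene-body scaling. Of 153 named values, 59 lost their call under at least 1 alternative, 0 reversed and 0 gained one; over all 2304 alternative values 2120 kept their side of the threshold. Depth limits the thinly read elements: a strand at 0 reads in a group may still hold up to 3 reads' worth there.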
